A study of Rattus norvegicus with 49 samples.

Results

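Ribosomal protein genes encode the proteins that assemble with ribosomal RNA into the small 40S and large 60S subunits of the cytosolic ribosome, the machine that translates mRNA. In mammals these mRNAs are abundant, and most begin with a short run of pyrimidines, the terminal oligopyrimidine (TOP) tract, through which growth signals such as mTOR control their translation as a class. In liver, a tissue that secretes much protein, cytosolic ribosomes occupy a large part of the hepatocyte, and ribosome production rises when hepatocytes grow or divide. The genes described here are those whose symbol is Rpl or Rps with a number (and at most the letter a, x, y or l), plus Rplp0, Rplp1, Rplp2 and Rpsa. Kinases of the Rps6k family were left out. The gene table held 79 such symbols, and 73 of them had a probe on the array, by 129 probes among 30367 in all. The other 6 symbols were not analysed here. Each gene was represented by its brightest probe, and 72 of the 73 passed the filter for a measurable liver signal, as did 17661 probes in all. The exception was Rpl3l, the muscle form of Rpl3, whose liver signal was well above background on 0 arrays of every group.

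The data are mRNA levels in the livers of F344 rats of both sexes, which belong to an inbred strain and were 7 to 8 weeks old when first dosed. Furan, a contaminant formed when food is heated, was given by gavage in corn oil on 5 days a week for 90 days. The daily doses were 2, 0.5, 0.12 and 0.03 mg/kg, and controls at 0 mg/kg received the oil alone. There were 5 rats in every combination of sex and dose except the males at 0.03 mg/kg, which were 4, and 1 rat gave 1 array. Every value is a log2 ratio of the liver signal over that of a pooled rat reference RNA on the same array, so 1 unit is a doubling relative to the reference and 0 means equal signals.

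On 48 of the 49 arrays, between 37.9% and 71.1% of the liver spots were well above background. The array of male 26 at 0.03 mg/kg was dim, with 5.06%, and is kept here unless stated. The arrays came from 8 slides, and the slides differed in these genes: the median level of the 72 genes in a rat ranged from -0.64 to -0.51 on slide 1 but from -1.43 to -0.29 on slide 8. Slide was therefore a term in every test. Dose and slide were partly mixed: slides 5 and 6 held no controls, and male 6 was the only control male outside slides 1 to 4. Of the males at 2 mg/kg, 81, 83 and 87 lay on slides 5, 7 and 8. The changes fitted for 81 and 83 lean on slide levels estimated from other groups, so the term cannot fully separate dose from slide. Hepatocyte markers marked the tissue as liver, with a mean log2 ratio of 6.12 to 8.24 in the control males. Sex markers followed the labels on those 48 arrays, with Cyp3a2 at 7.70 or more in every male and at 2.41 or less in every female. Because whole tissue was measured, more cells of a type and more RNA per cell cannot be told apart.

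The first question was whether furan changed the ribosomal protein genes, and at which dose. In males at 2 mg/kg, 54 of the 72 genes were higher than in control males and 0 were lower, at an adjusted p of at most 0.05 in limma with slide as a block. Of all tested probes, 8.87% were called higher and 5.2% lower in the same comparison. The median log2 change of the 72 genes was 0.46, a 1.37-fold rise, beside -0.02 over all probes, and 72 of the 72 fitted changes were above 0. The rise was small for most genes: 14 were both called and at least 1.5-fold higher, beside 2.43% of all probes. This count leaned on 1 control rat, male 6. Without it 22 genes were called, and the median change was 0.36. Without treated male 87, which lay on the same slide, 24 were called and the median was 0.35.

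The level in each rat shows how the groups lay. The median log2 ratio of the 72 genes was -0.64, -0.45, -0.51, -0.46 and -1.43 in control males 4, 2, 3, 5 and 6. It was -0.32, -0.66, -0.23, -0.32 and -0.29 in males 81, 83, 84, 86 and 87 at 2 mg/kg. Treated males 81, 84, 86 and 87 lay above every control, and treated male 83 lay below controls 2, 3, 4 and 5, so the groups overlapped. At the lower doses the group means were -0.90 ± 0.27 (SD, n = 4) at 0.03 mg/kg, -0.69 ± 0.27 (SD, n = 5) at 0.12 mg/kg and -0.65 ± 0.28 (SD, n = 5) at 0.5 mg/kg, against -0.70 ± 0.42 (SD, n = 5) in controls. At 2 mg/kg the mean was -0.37 ± 0.17 (SD, n = 5). In females the mean was -0.53 ± 0.10 (SD, n = 5) in controls and -0.64 ± 0.28 (SD, n = 5) at 2 mg/kg, before the slide term.

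**Figure D1:**
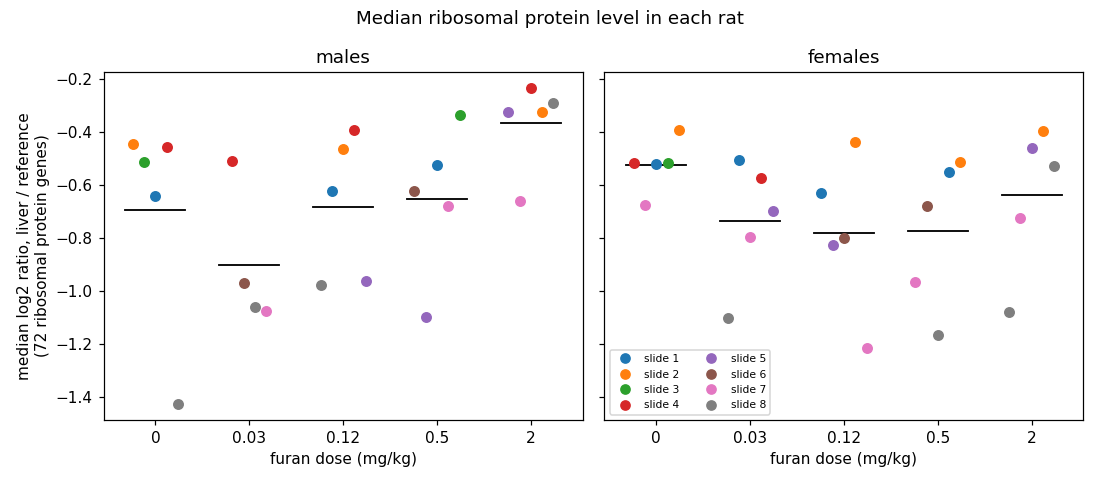
Median log2 ratio of liver over reference RNA over the 72 tested ribosomal protein genes in each rat (points, coloured by slide), by furan dose in mg/kg and sex, with group means as lines. Males at 2 mg/kg sit between -0.66 and -0.23, and control male 6 on slide 8 sits apart at -1.43.

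Within single slides that held a treated and a control male, the direction was the same but the size was not. The median difference between the 2 mg/kg male and the control male was 0.11 on slide 2, with 57 of 72 genes higher. It was 0.20 on slide 4, with 62 genes higher, and 1.15 on slide 8, with 71 higher. The slide 8 difference is that between males 87 and 6. In all, 48 of the 72 genes were higher in the treated male on all 3 slides. On arrays of slides 1 to 4 alone, where the liver signal was brightest, 10 genes were called and the median change was 0.19. There the treated males were 84 and 86 alone, against controls 2, 3, 4 and 5.

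**Figure D2:**
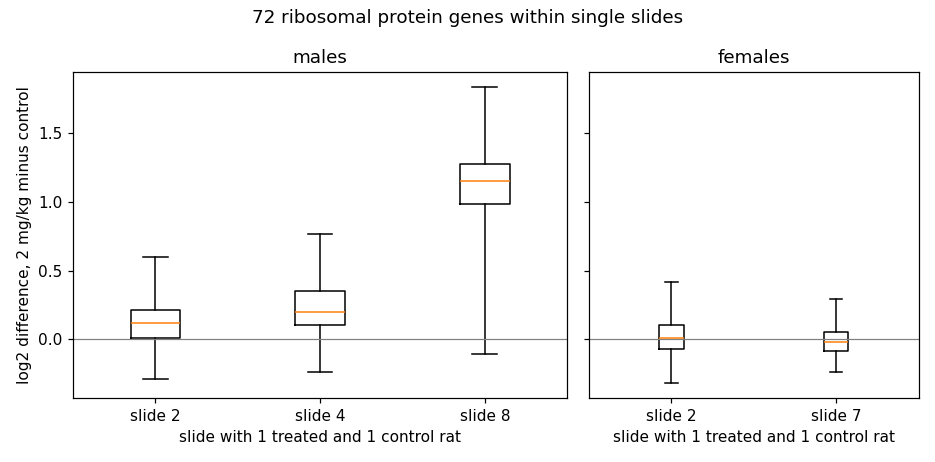
Log2 difference of each of the 72 genes between the treated rat at 2 mg/kg and the control rat on the same slide, as boxes (quartiles and median) with whiskers to the lowest and highest gene. The male medians are 0.11, 0.20 and 1.15 on slides 2, 4 and 8, and the female medians are 0.00 and -0.02 on slides 2 and 7.

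In 6 of the 72 genes, beside 2.67% of all probes, every treated male at 2 mg/kg lay above every control male. They were Rpl12, Rpl23a, Rpl27a, Rpl8, Rplp0 and Rps19. Leaving out control 6 kept these 6 and added Rpl15, a 60S protein whose liver signal was not well above background in control 6 and in treated male 81, so its order there is not resolved.

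Rpl23a, a 60S protein at the exit of the nascent chain tunnel, was called in every one of the 28 other settings tried. Its log2 ratio in control males was -1.37, -1.46, -1.53, -1.55 and -1.91, and at 2 mg/kg it was -0.60, -0.93, -0.84, -1.02 and -0.71. The groups did not overlap, and the fitted change was 0.70 ± 0.15 (SE, n = 5 and 5, limma adjusted p = 0.00175), a 1.63-fold rise that held between 0.50 and 0.79 over the settings. Both of its tested probes were called, with changes of 0.70 and 0.39.

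Rpl12, a 60S protein at the base of the stalk that recruits elongation factors, had the largest fitted rise. Its control males stood at -0.85, -0.85, -1.02, -1.0 and -1.95, and the treated males at -0.83, -0.66, -0.23, -0.70 and -0.11. The highest controls and the lowest treated rat differed by little, so the separation was narrow. The change was 0.81 ± 0.16 (SE, limma adjusted p = 0.000821), 1.75-fold, and it was called in 27 of the 28 other settings. Rpl13, another 60S protein, followed with 0.76 ± 0.15 (SE, limma adjusted p = 0.000737): its control males ran from -1.70 to -0.76 and its treated males from -0.92 to -0.10, so the groups overlapped.

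Rpl27a, another 60S protein, ran from -1.90 to -1.37 in control males and from -1.33 to -0.57 at 2 mg/kg, a change of 0.69 ± 0.13 (SE, limma adjusted p = 0.000592). Rps19, a 40S protein known for its mutations in Diamond-Blackfan anaemia, ran from -1.39 to -0.60 in controls and from -0.46 to -0.02 at 2 mg/kg, a change of 0.63 ± 0.13 (SE, limma adjusted p = 0.00095). All 3 tested probes of Rps19 were called. Either gene passed in 27 of the 28 other settings, as did Rpsa, the laminin receptor protein of the 40S subunit, whose change was 0.71 ± 0.15 (SE, limma adjusted p = 0.00182). Unlike them, Rpsa overlapped between the groups, from -1.79 to -0.83 in controls and from -1.03 to -0.30 at 2 mg/kg.

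**Figure D3:**
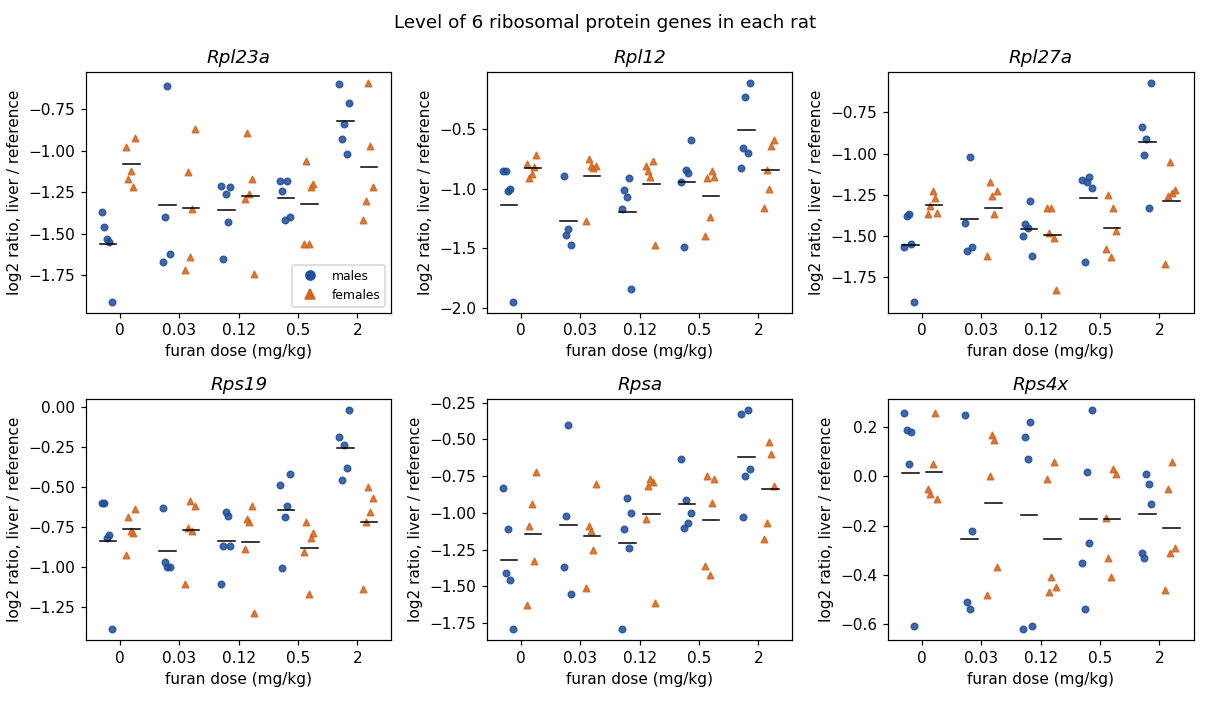
Log2 ratio of liver over reference RNA in each rat by furan dose in mg/kg for 6 genes (circles males, triangles females, lines group means). In Rpl23a, Rpl12, Rpl27a and Rps19 all 5 males at 2 mg/kg sit above all 5 control males, while in Rps4x the treated males sit below 4 of the 5 control males.

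By role, the stalk proteins other than Rpl12 gave mixed calls in males at 2 mg/kg. Rplp0, the stalk's core protein, changed by 0.74 ± 0.16 (SE, limma adjusted p = 0.00174), while the acidic proteins that bind to it had 0.38 ± 0.13 (Rplp1, adjusted p = 0.0514) and 0.37 ± 0.16 (Rplp2, adjusted p = 0.121) and were not called. Both proteins of the 5S particle, which when free bind Mdm2 and so stabilise p53, were called, with 0.61 ± 0.14 for Rpl5 and 0.50 ± 0.14 for Rpl11 (adjusted p = 0.00218 and 0.0169). Along the exit tunnel, Rpl17 rose by 0.63 ± 0.11 (adjusted p = 0.000244, the smallest of the 72), Rpl4 by 0.53 ± 0.16 and Rpl39 by 0.39 ± 0.12 (adjusted p = 0.0228 and 0.0184).

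Of the proteins of the decoding site and the mRNA path, Rps23, Rps14, Rps3 and Rps15 were called, with changes of 0.55, 0.54, 0.46 and 0.36, and Rps2 was not, with 0.40 ± 0.14 (limma adjusted p = 0.0545). Rps6, the substrate of the S6 kinases, rose by 0.46 ± 0.13 (adjusted p = 0.012). Rps27a, made as a fusion with ubiquitin, was not called at 0.27 ± 0.14 (adjusted p = 0.216). Among genes with tissue-specific relatives, Rpl3 and Rps27 were called at 0.60 and 0.32, and Rpl10 was not at 0.36 ± 0.16 (adjusted p = 0.123).

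Rps4x, the X-linked form of a 40S protein, had the smallest fitted change, 0.02 ± 0.09 (limma adjusted p = 0.912). Its treated males ran from -0.33 to 0.01 and its controls were 0.26, 0.19, 0.05, 0.18 and -0.61, so every treated male lay below 4 of the 5 controls and above control 6.

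Both subunits took part. Of 43 proteins of the 60S subunit, 32 were called, with a median change of 0.44. Of 29 of the 40S subunit, 22 were called, with a median of 0.46. Among all 126 tested probes of these genes, 97 were called higher and 0 lower, and where a gene had several tested probes their changes spread by a median of 0.08. The widest spread was in Rps16, with -0.03 and 0.31. Many ribosomal protein genes have processed pseudogenes and close relatives, and whether a probe also binds their transcripts was not tested.

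**Figure D4:**
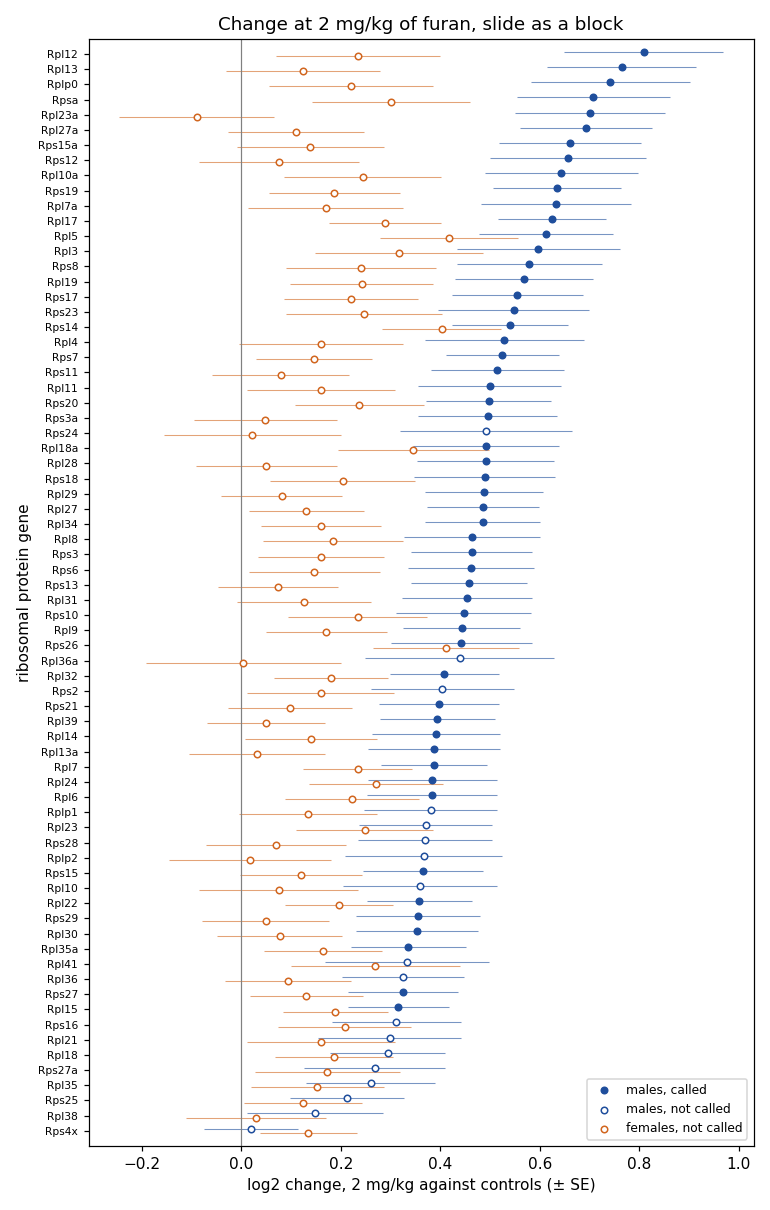
Fitted log2 change of each of the 72 genes at 2 mg/kg against controls of the same sex, with slide as a block (points, bars ± SE; filled where the limma adjusted p was at most 0.05). In males 54 genes are filled and all points lie at or above 0.02, while in females 0 are filled and the points run from -0.09 to 0.42.

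Promoters of the genes that led the male result show the start of the transcript, where a TOP tract would lie. RefSeq sequences (GRCr8 assembly) were found for 58 of the 72 genes, by 59 promoters. The windows below run 5′ to 3′ from 10 bases before the annotated start to 20 bases from it, in lower case, with matches to any of 3 pyrimidine motifs in capitals. The first 6 are of leading genes named above that had a promoter in the table, and the last 2 are of Rpl38 and Rps4x, which had the smallest fitted changes. A motif lay in 3 of the first 6 and in 0 of the last 2. The motifs are exact, so a window without one can still hold a run of pyrimidines. Rpl38 has only c and t in the 10 bases before its start, and Rplp0 has a run of c and t across its start. Whether a motif or tract goes with the size of the rise was not tested. They lie at chr3:36661930-36661959 (plus strand), chr19:68062504-68062533 (plus), chr1:172974563-172974592 (plus), chr12:46718371-46718400 (minus), chr8:128728869-128728898 (plus), chr1:89608678-89608707 (plus), chr10:100200425-100200454 (plus) and chrX:71342902-71342931 (minus), in the order printed.
Rpl12: aacatccgtcttttcggCTTTCggttcgga
Rpl13: cggtgcccgatcCTTTCcgctcggccgttc
Rpl27a: cttggtgggctcctccCTCTTTCttttctg
Rplp0: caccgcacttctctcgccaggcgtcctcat
Rpsa: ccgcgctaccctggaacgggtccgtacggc
Rps19: cttgtgcgcccgggaaaccccgtcgttccc
Rpl38: ttctttttccgttgttcggtgctcgctcct
Rps4x: cgcgcgcagcctccgaccctaatttcttcg

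Motifs were counted within 10 bases before to 15 from the start, on the strand that reads as the mRNA. There CTTTC was in 37.3% of the members' promoters and in 2.75% of all 33469 promoters. CTTCC was in 27.1% against 4.74%, CTCTT was in 28.8% against 3.16%, and any of the 3 was in 59.3% against 9.50%. CTCTT and CTTTC overlap where a tract reads CTCTTTC. On the other strand any of the 3 was in 3.39% of the members' promoters and 10.8% of all. A match is a description of these letters and not a site.

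In females at 2 mg/kg, 0 of the 72 genes were called by limma, beside 1.36% of all probes called higher and 0.821% lower, and 6 genes had an unadjusted p under 0.05. The median change was 0.16, with 71 of 72 fitted changes above 0. Rps14, nearest to the threshold, stood at 0.40 ± 0.12 (SE, limma adjusted p = 0.0621), and Rpl5 at 0.42 ± 0.14 (adjusted p = 0.0988). The sign of the female median rested on the slide term: it was -0.12 without it and -0.01 as the mean of the differences within slides. In 0 genes did every treated female lie above every control, beside 1.26% of all probes, and in 1 gene every treated female lay below every control, beside 2.74%. That gene was Rpl13a, a 60S protein, which ran from -0.38 to -0.28 in controls and from -0.95 to -0.43 at 2 mg/kg before the slide term, and whose fitted change with slide was 0.03 ± 0.14 (limma adjusted p = 0.943).

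At the 3 lower doses, 0 of the 72 genes were called by limma in either sex. The shares of all probes called higher were 0.0793%, 0.13% and 0% in males at 0.5, 0.12 and 0.03 mg/kg, and 0.00566%, 0.00566% and 0% in females. Unadjusted p under 0.05 was reached upwards by 2, 0 and 1 genes in males and by 0 in females, and downwards by 1 gene each in females at 0.12 and 0.03 mg/kg. The median changes in males were 0.11, 0.06 and -0.04, and in females -0.08, -0.13 and 0.00. An effect at any dose, by limma's moderated F test, was called for 45 of the 72 genes in males, beside 12.1% of all probes, and for 1, Rps14, in females, beside 0.804%. Without male 87 the male count fell to 9, and without male 81 to 19.

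Whether the change at 2 mg/kg differed between the sexes was tested as an interaction. By limma 0 of the 72 genes passed, beside 0.0793% of all probes called larger in males, and 18 had an unadjusted p under 0.05. The median difference was 0.30, larger in males for 71 of 72 genes. Rpl23a was nearest, with a difference of 0.79 ± 0.21 (SE, limma adjusted p = 0.0948): its females ran from -1.22 to -0.92 in controls and from -1.42 to -0.59 at 2 mg/kg. A sex difference in the furan effect on these genes was therefore not established by this test.

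In the comparison of control livers, 0 of the 72 genes were higher in males than in females, beside 1118 of the 17661 tested probes. Lower in males were 3 of the 72, a smaller share than the 7.39% of all probes. They were Rpl23a (-0.51 ± 0.15, SE, limma adjusted p = 0.0151), Rpl9 (-0.36 ± 0.11, adjusted p = 0.0309) and Rps3a (-0.41 ± 0.14, adjusted p = 0.038). Without control male 6, 0 were called. The Rpl23a level in males at 2 mg/kg, -1.02 to -0.60, overlapped that of the control females, -1.22 to -0.92, which control males did not reach. The same control males served in the comparison with females and in that with treated males, so the 2 are not independent.

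In the 10 control livers, 64 of the 72 genes had a mean ratio below 0, beside 44.5% of all tested probes, and the median was -0.58, beside 0.14 over all probes. The lowest were Rps25 at -1.57, Rps26 at -1.55 and Rpl3 at -1.50, and the highest were Rpl38 at 0.57, Rpl10 at 0.26 and Rpl35 at 0.20. After group and slide were removed, the members moved together from rat to rat: a gene's correlation with the mean of the other members had a median of 0.84 over 49 arrays, which share slides and a reference. The lowest value was that of Rpl15, at -0.34, whose liver signal was not well above background on 13 of the 49 arrays, all of them on slides 5 to 8.

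Genes that act beside the ribosome were described from lists, whose counts stand beside the 8.87% of all probes called higher and 5.2% lower in males at 2 mg/kg, and the 1.36% and 0.821% in females. Before the slide term, the mean ratio of 18 tested genes for elongation and other TOP mRNAs was -0.82, -0.78, -0.81, -0.80 and -1.37 in control males 2, 3, 4, 5 and 6. In males 81, 83, 84, 86 and 87 at 2 mg/kg it was -0.75, -0.77, -0.59, -0.78 and -0.49. How far the calls in this list depend on control 6 was not tested. Of the 18 genes, 9 rose and 0 fell in males at 2 mg/kg, with a median of 0.35. Among the 9 were Rack1, a scaffold on the 40S subunit, at 0.66 ± 0.16 (limma adjusted p = 0.00606), and Eif3e at 0.42 ± 0.09 (adjusted p = 0.00109). Elongation factor Eef2 was not called at 0.56 ± 0.20 (adjusted p = 0.0569). In females 0 of the 18 were called, with a median of 0.10. Of 25 initiation factors, 8 rose and 1 fell in males, with a median of 0.22: Eif4a1, the helicase of the cap complex, rose by 0.52, and Eif3j fell by 0.38. In females 2 rose, Eif2b1 and Eif2b4.

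Of 35 ribosome biogenesis genes, 10 rose and 0 fell in males, with a median of 0.25. They included Bop1, of the complex that matures 60S rRNA, at 0.42 ± 0.10 (limma adjusted p = 0.00462), and Ebna1bp2 at 0.59 ± 0.16 (adjusted p = 0.0111). In females 2 rose, Bop1 at 0.39 and Rrs1 at 0.77. Of 17 growth control genes, 2 rose and 1 fell in males, shares near those of all probes. Eif4ebp1, an mTOR substrate that represses the cap-binding factor Eif4e, rose by 0.81 ± 0.17 (limma adjusted p = 0.00117). Akt1s1 rose by 0.33, and Sesn2 fell by 0.52. Myc was not called at -0.04 ± 0.28 (adjusted p = 0.945). Of 63 mitochondrial ribosomal protein genes, which serve a separate ribosome, 10 rose and 1 fell in males, with a median of 0.06, beside -0.02 over all probes. Rpl22l1, a relative of Rpl22 that lies outside the rule, rose by 0.54 ± 0.13 (adjusted p = 0.00548).

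Markers of other cell types moved beside these genes. Of 6 tested bile duct markers, 3 rose in males at 2 mg/kg, Cftr, Epcam and Krt19, by 0.94, 0.92 and 0.76, beside 8.87% of all probes. Cftr was well above background on 14 of the 49 arrays, among them 2 of the 5 control males and 4 of the 5 at 2 mg/kg, so its change is uncertain. The mean bile duct marker ratio was -1.49 to -1.14 in control males and -1.20 to -0.06 at 2 mg/kg. Of 10 hepatocyte markers, 2 fell, Alb by 0.52 and Ttr by 0.51, beside 5.2% of all probes called lower, and the mean ratio was 6.12 to 8.24 in controls and 6.00 to 7.62 at 2 mg/kg. The lowest hepatocyte value among controls, 6.12, and the lowest macrophage value, 2.15, were those of control male 6. These means were taken before the slide term. On slide 8, male 87 and females 82 and 92 at 2 mg/kg had hepatocyte values of 6.00, 6.00 and 5.87. No other control lay on slide 8, so dose and slide cannot be told apart among these rats. The macrophage values of male 87 and females 82 and 92 were 2.47, 2.75 and 2.76. Treated male 87, on the same slide, had the highest bile duct value, -0.06 against -1.20 to -0.62 in the other treated males, and the highest stellate cell value, -0.05 against -1.26 to -0.66. The stellate cell list had a median change of 0.44 in males. Of 10 macrophage, 7 lymphocyte, 10 stellate cell and 4 endothelial markers, 0 were called in males. Of 6 erythroid markers, Slc4a1 fell by 0.71. Of 3 tested skeletal muscle and testis markers, 0 were called. The part of these cell types in the result was not tested.

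The call depended on how the arrays were treated. Without the slide term, the males at 2 mg/kg gave 8 called genes. Without it and control 6 they gave 4, namely Rpl23a, Rpl27a, Rpl7a and Rps19. From the ratio of the scanner software 17 were called, with a median of 0.17. The authors' deposited values, fitted without slide, gave 8. In the settings tried, 0 genes were called lower in males at 2 mg/kg.

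**Figure D5:**
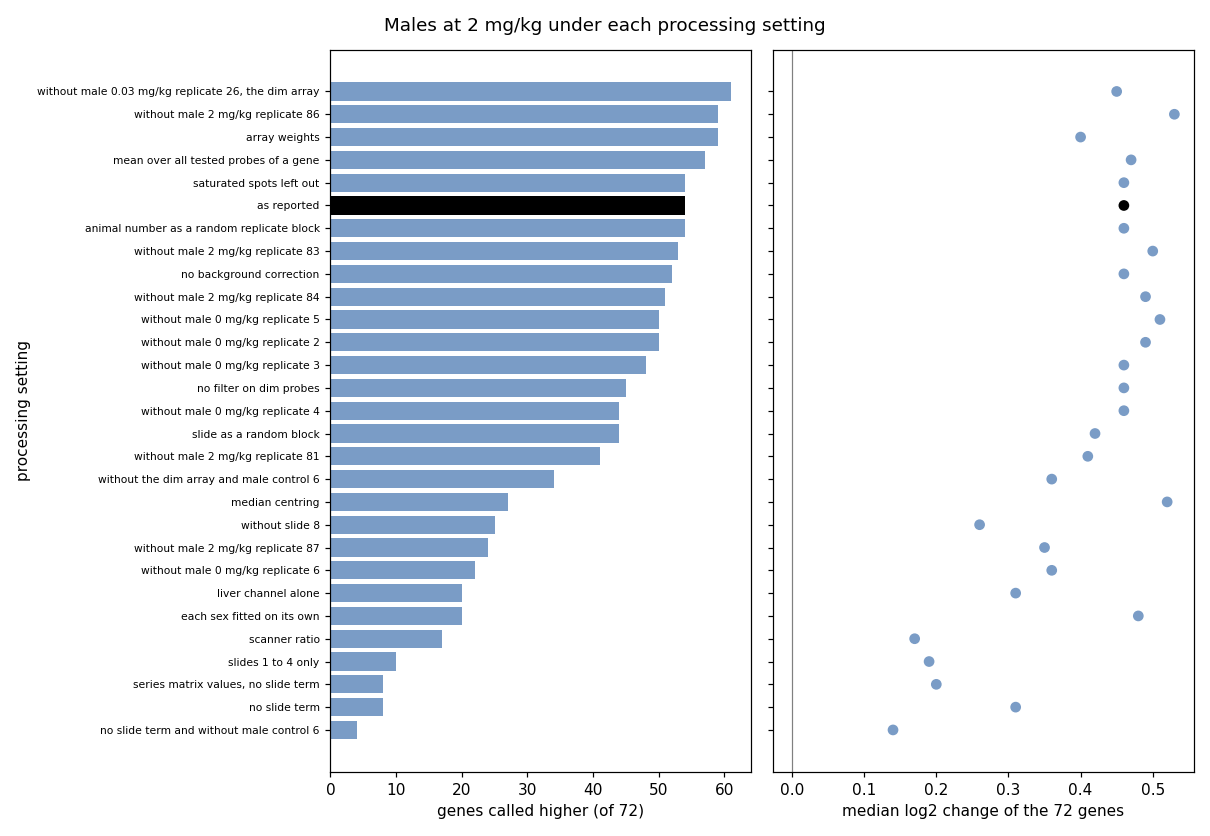
Genes called higher in males at 2 mg/kg, of 72 (bars, left), and their median log2 change (points, right) under each processing setting, with the values reported here in black. Counts run from 4 to 61 and medians from 0.14 to 0.53, all above 0.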

How the data were processed

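Each of 49 Agilent arrays compared the liver RNA of a rat, in Cy5, with a commercial pooled rat RNA, in Cy3, always in this orientation. The members and lists were chosen with earlier results of these data known. Per the labels, 50 RNA samples were labelled and 1 male array was set aside for its quality. The 49 arrays used here include the dim array and hold 4 males at 0.03 mg/kg in place of 5; the labels do not name the array set aside.

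The deposited scanner files, made with Agilent Feature Extraction 10.7.3.1, hold the median pixel intensity of each spot and its background. The deposited log10 ratio of liver over reference, which the scanner software had background subtracted and dye normalised per the file headers, was an alternative. In the deposited series matrix, the authors gave log2 ratios for these arrays, normalised in R. Of its 49 columns, 7 were closest to the scanner file of their own sample and 46 to one of their own group, so it was fitted by group, without slide; 0 columns were left out, and animal numbers are those of the scanner files.

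Intensities were corrected by normexp with an offset of 50 and normalised by loess within arrays in limma 3.58.1 under R 4.3.3. Spots of a probe were averaged. Tests covered probes whose liver channel passed the scanner mark for signal above background on 4 or more arrays within any group. The GRCr8 table of RefSeq, used for names only, gave a symbol to 18004 of 30367 probes. The model had 1 mean per group, slide as a block and a spread shared by all groups. Tests were 2-sided, with Benjamini-Hochberg adjustment over 17661 probes, and a call is an adjusted p of at most 0.05. The number of arrays limits the precision. On simulated data with 17661 probes, 64.0%, 93.5% and 100% of probes changed 1.4-fold, 2-fold and 4-fold in males at 2 mg/kg were called, and 4.63% of calls were false. The simulated noise was independent between probes and held no outlying array. The 72 genes move together, with a median correlation of 0.84, so these rates do not describe them as a set.

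Named genes were, per sex at 2 mg/kg, up to 5 called members with the largest rise and fall; for the interaction and the controls, up to 3 called members each way; the 3 highest and 3 lowest ratios in controls; and members by role, whatever their values. Rpl27a, Rps19, Rpl8, Rpl7a, Rpl13a, Rpl15, Rps16 and the list genes were chosen after their values were seen. Alternatives left out slide, arrays or the background correction, or changed the normalisation, filter, weights or probes; 4 settings (without slide 8, slides 1 to 4 only, and 2 without control 6) were chosen after seeing the data.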

Additional observations from a re-analysis of the deposited data

Results flagged for a closer look

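In all, 134 sets of 4 or 5 rats were checked: the group medians of the 72 genes, and named genes in controls and at 2 mg/kg. Of these sets, 27 held a rat far from the others. Chance flags about 1 in 20 where all rats of a set share 1 level. The values were taken before the slide term and the rats of a set came from several slides, so that rate does not hold here. The genes move together, so the flags are not independent.

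Control male 6 gave 18 of them. It lay at -1.43 in the median of the 72 genes, at -1.41 in Rpl11, -1.95 in Rpl12, -1.70 in Rpl13, -2.15 in Rpl3, -1.06 in Rpl35, -1.06 in Rpl4, -1.40 in Rpl8, -2.0 in Rplp0, -1.56 in Rplp1, -1.34 in Rplp2, -1.45 in Rps15, -1.39 in Rps19, -1.08 in Rps2, -1.11 in Rps27, -1.36 in Rps3, -0.61 in Rps4x and -1.57 in Rps6, in each the lowest of the control males. Its liver spots were well above background in 45.5% and its reference spots in 67.7%, the lowest share in the reference among the 48 arrays.

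Male 83 at 2 mg/kg lay below its group at -0.66 in the median and -0.64 in Rps3. Of single values, control male 3 lay at -1.72 in Rps25. Among control females, rat 2 lay at -0.96 in Rplp1, rat 9 at -0.53 in Rplp2 and rat 4 at -0.53 in Rps23. At 2 mg/kg, female 83 lay at -0.81 in Rpl15, female 82 at -1.99 in Rpl3 and female 90 at -0.70 in Rps26, the last above its group.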

How the results depend on the processing

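Main counts were 54 genes called in males at 2 mg/kg, 0 in females, 0 for the interaction, 3 for controls, and 45 and 1 for any dose in males and females. Named in that order where they changed, the counts were as follows; the cause was not tested. With a fold of at least 1.5, 14 and, for controls, 0. Without the slide term 8, controls 0, any dose 2 and 0, and the female median turned to -0.12. Without the dim array, females 4, interaction 1 and any dose in females 2. With each sex fitted on its own, 20, females 3, any dose 0 and 4. With array weights, females 11, interaction 2, controls 11 and any dose in females 17. From the scanner ratio, 17 with a median of 0.17, females 1, interaction 1, controls 1 and any dose in females 0. With median centring, 27, controls 27, any dose 25 and 0. From the liver channel alone, 20, interaction 1 and any dose in females 0. From the series matrix, 8, controls 1, any dose 5 and 0, and the female median -0.16. With the mean of a gene's probes, any dose in females 0. The mean within-slide difference gave a female median of -0.01.

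Of settings chosen after seeing the data, leaving out slide 8 gave 25, females 2 and any dose 28 and 2. Slides 1 to 4 gave 10, controls 5, any dose 1 and 0. Leaving out control 6 and the slide term gave 4 with a median of 0.14, a female median of -0.12, controls 0 and any dose 3 and 0. Leaving out control 6 and the dim array gave 34, females 4, interaction 1, controls 1 and any dose in females 2.

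With each replicate left out in turn, the counts ran from 22 to 59 in males and 0 to 1 in females at 2 mg/kg, 0 to 1 for the interaction, 0 to 5 for controls, 9 to 57 and 0 to 1 for any dose in males and females, and 0 to 2 in males at 0.03 mg/kg, where leaving out male 22 gave 2. Medians ran from 0.35 to 0.53 in males and 0.10 to 0.22 in females.

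Rps4x turned to -0.17 without slide and in the series matrix, -0.02 with slide as a random block, -0.01 with array weights, -0.10 in the scanner ratio, -0.09 in the liver channel, -0.11 without slide 8, -0.15 on slides 1 to 4, -0.33 without slide and control 6, -0.03 without the dim array and control 6, and ran from -0.08 to 0.09 with a replicate left out. Rpl10 turned to -0.06 in the scanner ratio and -0.08 in the matrix, Rplp2 to -0.06 in the scanner ratio and -0.05 on slides 1 to 4, and Rps27 to -0.05 in the scanner ratio, -0.01 in the matrix and -0.16 without slide and control 6, where Rpl39 stood at -0.11 and Rps27a at -0.07.

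Animal numbers occur in both sexes but name different rats, so they pair no samples. With the animal number as a random replicate block (correlation 0.065), 54 genes were called in males and 0 in females at 2 mg/kg, and no call count changed by over 1.5 times.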
